A study of Mus musculus with 4 samples.

Results

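The genes described here build the motile cilium, the beating hair-like organelle carried by ependymal cells and other multiciliated cells. They were chosen by name: 72 genes by the prefixes Dnah, Dnaic, Dnaaf, Rsph, Cfap, Tekt and Drc followed by a digit, and 12 single genes, namely Foxj1, Rfx2, Rfx3, Mcidas, Pifo, Dynlrb2, Ccdc39, Ccdc40, Hydin, Spag6l, Spag16 and Spag17. The rule gave 84 members among the 55467 genes listed in each library, of which 83 are protein coding and 1, Dnah2os, is an antisense transcript. The rule uses names alone, but it was set with earlier results of these data known.

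The study compared astrocytes, glial cells that support neurons, from mice that were wild-type (WT) or lacked CD38 (CD38 KO), and each genotype has 2 libraries. CD38 is an enzyme that consumes NAD+. Per the labels, both genotypes were handled alike: cells from the cerebral cortex of pups 1 to 3 days old were released with dispase, grown for 14 days in medium with 10% serum, freed of loose cells by shaking for 12 h, replated and harvested after 5 days. PolyA RNA was sequenced, and each value is an FPKM, the fragments of a gene divided by its transcript length and by the total of mapped fragments. The labels give no strain, so a difference of strain and the loss of Cd38 cannot be told apart. They also do not say whether the 2 libraries of a genotype came from separate animals or cultures, so the spread behind each p-value is that between these samples and may be technical.

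A motile cilium is built on an axoneme, a ring of paired microtubules around a central pair. Dynein motors on the ring drive sliding, the nexin-dynein regulatory complex links neighbouring pairs, and radial spokes carry signals from the central apparatus to the dyneins. FOXJ1 and factors of the RFX family switch on many of these genes, and ependymal cells, which line the brain's ventricles, are the main multiciliated cells of the brain. Astrocytes themselves usually carry a single primary cilium, which lacks this motor machinery.

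Estimated depth ranged from 26840000 fragments in WT 1 to 29090000 in CD38 KO 2. Cd38 itself had 3.13 FPKM in WT 1, 3.46 in WT 2 and 0.0222 in each CD38 KO library. Over all 13064 genes whose mean reached 1 FPKM, limma with Benjamini-Hochberg adjustment at 0.05 called 8.00% higher and 6.35% lower in CD38 KO. Astrocyte markers were abundant, with a summed level of 5434 and 5385 FPKM in WT and 4614 and 4513 FPKM in CD38 KO over 14 genes, of which 2 rose and 8 fell. Markers of microglia and macrophages were far higher in CD38 KO: 15 of 17 were tested, all 15 rose (Cx3cr1, Itgam and Tmem119 passed the filter through CD38 KO alone), and the summed level of the 17 was 115, 101, 798 and 711 FPKM in WT 1, WT 2, CD38 KO 1 and CD38 KO 2. Values below are given in this order of libraries.

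The RFX factors bind a DNA motif named the X-box, and its core letters GTTGCC (or GGCAAC on the other strand) were searched on both strands of the promoter window, 250 bases before to 50 bases after a RefSeq start site on GRCm38.p6. Of the 84 members, 70 had such a window, and 31 of them (44.3%) held the letters, against 14.0% of the 16745 genes with a window. A gene with several start sites has several windows, as 6 of these members do, and counts as holding the letters if any window does. The members without an entry were Cfap157, Cfap299, Cfap53, Cfap54, Cfap65, Cfap73, Cfap97, Dnaaf1, Dnah2os, Dnah3, Foxj1, Rsph1, Rsph10b and Rsph4a. The sequences below are the stretches around each match that lies before the start site in a member that rose in CD38 KO, 6 members in all, each written 5′ to 3′ on the gene's own strand with the match in capitals. Spag6l, the seventh such member, had its match 34 bases after the start site and is not shown. The stretch of Drc1 lies at chr5:30281360-30281392 (plus strand), that of Pifo at chr3:106001498-106001531 (minus strand), Cfap97d2 at chr8:13705848-13705888 (plus strand), Dynlrb2 at chr8:116504942-116504991 (plus strand) and Dnah7b at chr1:46066668-46066717 (plus strand). Tekt2 held a pair of matches, at chr4:126325683-126325732 and chr4:126325757-126325806 (both minus strand).

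Drc1: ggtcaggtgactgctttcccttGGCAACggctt
Pifo: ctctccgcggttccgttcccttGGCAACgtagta
Cfap97d2: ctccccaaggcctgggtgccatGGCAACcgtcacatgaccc
Dynlrb2: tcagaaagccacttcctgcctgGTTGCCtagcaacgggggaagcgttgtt
Dnah7b: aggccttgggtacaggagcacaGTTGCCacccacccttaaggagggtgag
Tekt2, nearer the start: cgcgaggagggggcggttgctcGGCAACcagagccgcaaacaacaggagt
Tekt2, farther from the start: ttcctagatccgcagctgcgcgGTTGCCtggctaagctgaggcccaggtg

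The match began 11 bases before the start site in Drc1, 12 in Pifo, 19 in Cfap97d2 and 51 in Dynlrb2, and 163 bases before it in Dnah7b. In GENCODE M21 Pifo spans chr3:105996957-106014646 (minus strand) and Dnah7b chr1:46066315-46373546 (plus strand). The stretches of both lie inside these spans, so by that annotation they are not upstream of the whole gene. In Tekt2, which has several RefSeq start sites, the matches began 64 and 138 bases before one of them and 22 and 96 bases before another. The letters did not separate members that changed from members that did not: they were in 7 of 12 members called higher (58.3%), in the window of Dnaic2, a member called lower, in 12 of 24 tested members that were not called (50.0%) and in 11 of 33 members too low to test (33.3%). A forkhead-type motif, TAAACA or TGTTTA, the kind of letters that FOXJ1 and its relatives bind, was in 14 of 70 members (20.0%) against 13.1% of all genes. These spellings were kept from 10 that were tried after their matches were seen, and a match is a description of letters, not a binding site.

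Levels of the members spanned a wide range. Over the 4 libraries, 9 members had a mean of at least 10 FPKM, 33 lay between 1 and 10 FPKM, 24 between 0.1 and 1 FPKM and 18 below 0.1 FPKM, among them Cfap58, Cfap97d1 and Tekt3, which were listed at 0 in every library. Foxj1 was the highest, at a mean of 47.2 FPKM, and the median member had a mean of 1.04 FPKM. The summed level of the members was 307.1, 301.7, 371.2 and 355.0 FPKM, so both CD38 KO libraries lay above both WT libraries. Without Foxj1 the sums were 267.7, 263.9, 314.1 and 300.4 FPKM, in the same order. In bulk RNA, a change in the number of ciliated cells and a change in RNA per cell cannot be told apart. The 5 genes outside the set whose profile over the 4 libraries lay nearest to this sum, by Euclidean distance of centred log2(FPKM + 1), were Gnal, Ndufaf5, Ubap1, Atp7a and Cox6a1, at distances of 0.0053 to 0.018.

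A mean of at least 1 FPKM admitted 42 of the 84 members to the test. Of these 42, 13 rose and 2 fell in CD38 KO (31.0% and 4.76%, against 8.00% and 6.35% of all tested genes), and 27 were not called. In 29 of the 42 (69.0%) both CD38 KO libraries lay above both WT libraries, and in 3 they lay below, against 30.4% and 29.5% of all tested genes. The median difference in log2(FPKM + 1), CD38 KO minus WT, was 0.27 over the tested members and 0.0011 over all tested genes. These counts describe only members that passed the filter. Of them, 6 had a WT mean below 1 FPKM and passed through their CD38 KO level: Ccdc40, Cfap43, Cfap52, Dnah7b, Pifo and Spag6l. All of these but Ccdc40 are among the 13 called higher, so 5 of the 13 calls rest on members admitted by the genotype where they are high. The filter fell between Cfap70 at a mean of 0.999 FPKM, outside, and Cfap43 at 1.09 FPKM, inside. Between libraries of the same genotype the members' median difference was 0.06 (WT 2 minus WT 1) and -0.06 (CD38 KO 2 minus CD38 KO 1), and between genotypes it was 0.22 to 0.36 over the 4 pairs. Most calls rested on all 4 libraries. Members called higher numbered 5 without WT 1, 7 without WT 2, 3 without CD38 KO 1 and 3 without CD38 KO 2, against 3.51%, 3.12%, 2.34% and 2.62% of all tested genes. In the same 4 fits 0 members were called lower, against 2.17%, 1.93%, 1.84% and 1.72% of all tested genes. Only Foxj1, Drc1 and Rsph9 stayed called without each of the 4 libraries. With replicate number as a block, 6 members were called higher and 1 lower (4.67% and 3.27% of all tested genes). A filter at 5 FPKM left 17 members, 3 called higher and 2 lower (8.41% and 7.35% of all genes then tested), one at 0.1 FPKM admitted 66, 14 and 2 called (5.24% and 4.03%), and no filter admitted 81, 4 and 1 called (1.61% and 1.17%). Markers of microglia moved with these members in the libraries, with the sums given above, and their part in the differences was not tested.

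**Figure D1:**
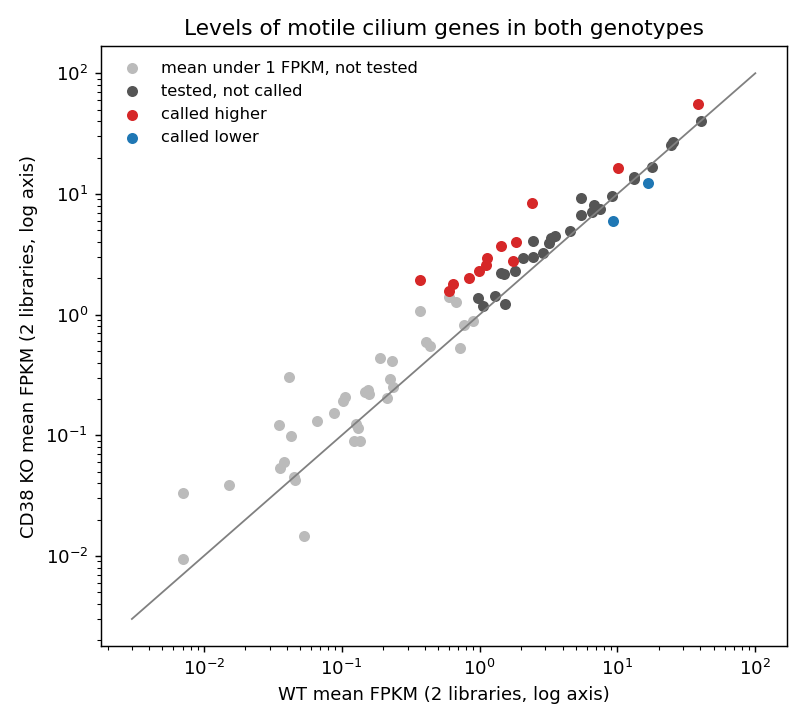
Mean FPKM of each member in the 2 WT libraries (horizontal, log axis) and in the 2 CD38 KO libraries (vertical, log axis); the line marks equal levels, and members at 0 in a genotype are not drawn. The 13 members called higher (red) lie above the line, most of them at a few FPKM, and the 2 called lower (blue) lie below it.

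Among the transcription factors, Foxj1, the forkhead factor needed for motile cilia, rose. Foxj1 (ENSMUSG00000034227, chr11:116330704-116335399, GRCm38) stood at 39.4, 37.7, 57.0 and 54.7 FPKM, which correspond to about 2597, 2616, 4063 and 3902 fragments. Its mean was 38.6 ± 1.17 FPKM in WT and 55.9 ± 1.69 FPKM in CD38 KO (SD, n = 2 each), a 1.45-fold difference. The groups did not overlap, and the log2 difference of 0.52 (SE 0.05, limma adjusted p = 0.00266) kept an adjusted p of at most 0.0469 with any 1 library left out. Rfx2, an RFX factor of multiciliated cells and testis, was at 6.61, 6.47, 7.31 and 6.91 FPKM (log2 difference 0.11, limma adjusted p = 0.392). Rfx3, its relative needed for ciliogenesis in the brain, was at 3.32, 3.29, 4.87 and 3.80 FPKM (log2 difference 0.30, limma adjusted p = 0.168). In both RFX genes the CD38 KO libraries lay above the WT libraries, as in 30.4% of all tested genes, but the difference did not pass the test. Mcidas, which starts the multiciliation programme upstream of Foxj1, was listed at 0 in all libraries but WT 2, where 0.0160 FPKM corresponds to 1 fragment.

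Of 5 genes of the nexin-dynein regulatory complex and the ruler, all tested, 2 rose, against 8.00% of all tested genes. Drc1 had the largest difference in log2(FPKM + 1) among the tested members, though not the largest fold in FPKM. Drc1 (ENSMUSG00000073102, chr5:30281388-30366695), a scaffold protein of this complex, stood at 2.23, 2.54, 8.18 and 8.72 FPKM. That is 3.55-fold higher in CD38 KO, with a log2 difference of 1.48 (SE 0.09, limma adjusted p = 0.000508) and an adjusted p of at most 0.0236 with any 1 library left out. Drc1 lies on the same chromosome as Cd38 (chr5:43868553-43912375), 13.5 Mb away, and whether a linked strain difference has a part in it was not tested. Drc7, another subunit, was at 1.67, 1.99, 4.58 and 3.36 FPKM, 2.16-fold higher (limma adjusted p = 0.0243), and its call ended when any 1 library was left out. Drc3 was at 3.16, 3.26, 3.66 and 4.19 FPKM and was not called (limma adjusted p = 0.200).

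Ccdc39 and Ccdc40 form the molecular ruler that spaces dyneins and the regulatory complex along the axoneme. Ccdc40 was at 0.792, 1.17, 1.49 and 1.25 FPKM (log2 difference 0.27, limma adjusted p = 0.322). Ccdc39 was at 3.91, 6.95, 6.74 and 6.75 FPKM, so WT 2 lay with the CD38 KO libraries and WT 1 apart from the other 3. Its log2 difference was 0.31 with all libraries (limma adjusted p = 0.400), 0.66 without WT 2 (adjusted p = 0.0486) and -0.04 without WT 1 (adjusted p = 0.839). Exons of Ttc14, on the opposite strand, overlap Ccdc39 by 1256 bases, and Ttc14 stood at 17.0, 23.4, 18.5 and 18.0 FPKM, also highest in WT 2. The library kit keeps the strand, whether the counting used it is not given in the sources used here, and the part of the overlap was not tested.

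The radial spoke genes went both ways. Rsph9 (ENSMUSG00000023966, chr17:46122035-46144216), a spoke head protein, stood at 10.3, 10.0, 16.3 and 16.5 FPKM, 1.61-fold higher in CD38 KO with a log2 difference of 0.64 (SE 0.06, limma adjusted p = 0.00222). With any 1 library left out its adjusted p was at most 0.0468. Rsph1 (ENSMUSG00000024033, chr17:31255019-31277383), a second spoke head protein, stood at 16.5, 16.6, 12.9 and 11.5 FPKM. That is 1.35-fold lower in CD38 KO, with a log2 difference of -0.41 (SE 0.07, limma adjusted p = 0.0189), and the call ended when any 1 library was left out (largest adjusted p = 0.122). So these spoke head genes, each at 10.0 FPKM or more in every library, moved in opposite directions, with no overlap between genotypes in either.

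Rsph10b was at 1.42, 1.58, 2.06 and 2.27 FPKM (limma adjusted p = 0.119). Rsph3a, at 15.3 to 19.3 FPKM, and Rsph3b, at 4.17 to 5.11 FPKM, encode near-identical spoke stalk proteins among which reads may be split, and neither was called (limma adjusted p = 0.684 and 0.553). Rsph4a, a spoke head protein under the filter, was at 0.299, 0.437, 1.18 and 0.957 FPKM, or about 28, 43, 119 and 97 fragments, 2.90-fold higher. With the filter lowered to 0.1 FPKM its limma adjusted p was 0.0418, and with no filter it was 0.0898. Rsph6a was above 0 only in WT 2, at 0.0759 FPKM, and Rsph14 did not exceed 0.0921 FPKM in any library.

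Of 3 genes of the dynein motors other than heavy chains, all tested, 1 rose and 1 fell, against 8.00% and 6.35% of all tested genes. Dynlrb2, a light chain of the roadblock type, was at 0.849, 1.42, 3.16 and 2.73 FPKM, 2.59-fold higher (log2 difference 0.90, SE 0.17, limma adjusted p = 0.0232), and of the 4 fits without 1 library only that without WT 2 kept the call. Dnaic2 (ENSMUSG00000034706, chr11:114727408-114757889), an intermediate chain of the outer dynein arm, was at 9.28, 9.30, 5.97 and 5.96 FPKM. The 1.56-fold lower level in CD38 KO gave a log2 difference of -0.56 (SE 0.07, limma adjusted p = 0.00554). Libraries of the same genotype differed by far less than the genotypes did, but with 1 library left out the call ended in every case, at adjusted p between 0.0550 and 0.0675. Dnaic1, the partner intermediate chain, was at 1.65, 1.98, 2.46 and 2.14 FPKM and was not called (log2 difference 0.23, limma adjusted p = 0.284).

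The dynein heavy chains, the motor subunits themselves, were nearly all scarce: 13 of 15 had a mean below 1 FPKM. Dnah7b, of the inner arm, was at 0.860, 0.803, 2.03 and 1.97 FPKM, 2.41-fold higher (log2 difference 0.71, SE 0.12, limma adjusted p = 0.0181), and its call ended when any 1 library was left out. Its near-identical copies differed from it: Dnah7a was at 0.213, 0.0805, 0.195 and 0.264 FPKM and Dnah7c at 0.110, 0.162, 0.0800 and 0.0988 FPKM, and how reads were split among the 3 copies is uncertain. Dnah9, an outer arm chain, was at 1.05, 1.06, 1.10 and 1.24 FPKM and was not called (limma adjusted p = 0.721).

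Dnah11, another outer arm chain, was at 0.0446, 0.0379, 0.280 and 0.331 FPKM, 7.41-fold higher in CD38 KO. It was called only with no filter (limma adjusted p = 0.0488), not with a filter at 0.1 FPKM (0.0810), and 642 exon bases overlap Cdca7l on the opposite strand, which stood at 6.57, 6.67, 6.35 and 6.82 FPKM. Dnah6 was 3.47-fold higher at 0.0243, 0.0453, 0.138 and 0.104 FPKM, and Dnah5, the outer arm chain most often mutated in ciliary disease, was at 0.0867, 0.117, 0.191 and 0.191 FPKM, or about 36, 51, 86 and 86 fragments. Dnah12 and Dnah7c had both CD38 KO libraries below both WT libraries, at levels of at most 0.162 FPKM. Of the heavy chains under the filter, Dnah11 alone was called in any alternative that kept all 4 libraries.

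The dynein assembly factors, which fold and preassemble the arms in the cytoplasm, had 5 tested members and none was called by limma. Over all tested genes 8.00% were called higher and 6.35% lower. Among the 5 factors, 2 had an unadjusted p below 0.05. Dnaaf3 was at 1.88, 2.25, 3.10 and 2.83 FPKM (log2 difference 0.37, limma adjusted p = 0.0948). Cfap300 was at 6.54, 6.87, 7.80 and 8.50 FPKM (0.25, adjusted p = 0.0940). The groups did not overlap in these 2 genes, nor in Dnaaf4 at 2.58, 2.31, 2.87 and 3.14 FPKM (limma adjusted p = 0.241). Of all tested genes, 59.9% did not overlap between genotypes, and 30.4% had both CD38 KO libraries above both WT libraries. Dnaaf5, at 8.58 to 10.1 FPKM, and Cfap298, at 20.1 to 30.3 FPKM, overlapped between genotypes.

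In the central apparatus, the central pair of microtubules and its projections, Spag6l rose. Spag6l was at 0.884, 1.10, 2.40 and 2.19 FPKM, 2.31-fold higher (log2 difference 0.73, SE 0.13, limma adjusted p = 0.0196), and its call ended when any 1 library was left out. Cfap46 was at 1.50, 1.34, 2.41 and 2.03 FPKM (limma adjusted p = 0.0897) and Cfap69 at 1.87, 3.03, 4.37 and 3.77 FPKM (adjusted p = 0.0938). Both lay above WT in both CD38 KO libraries, as did 30.4% of all tested genes, without passing the test. Cfap74 was at 1.27, 1.79, 1.26 and 1.19 FPKM (log2 difference -0.18, limma adjusted p = 0.490), and Cfap54 at 2.99, 2.82, 3.23 and 3.26 FPKM (0.12, adjusted p = 0.449). Hydin, a very large projection protein, and Spag17 reached at most 0.0556 and 0.0679 FPKM.

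**Figure D2:**
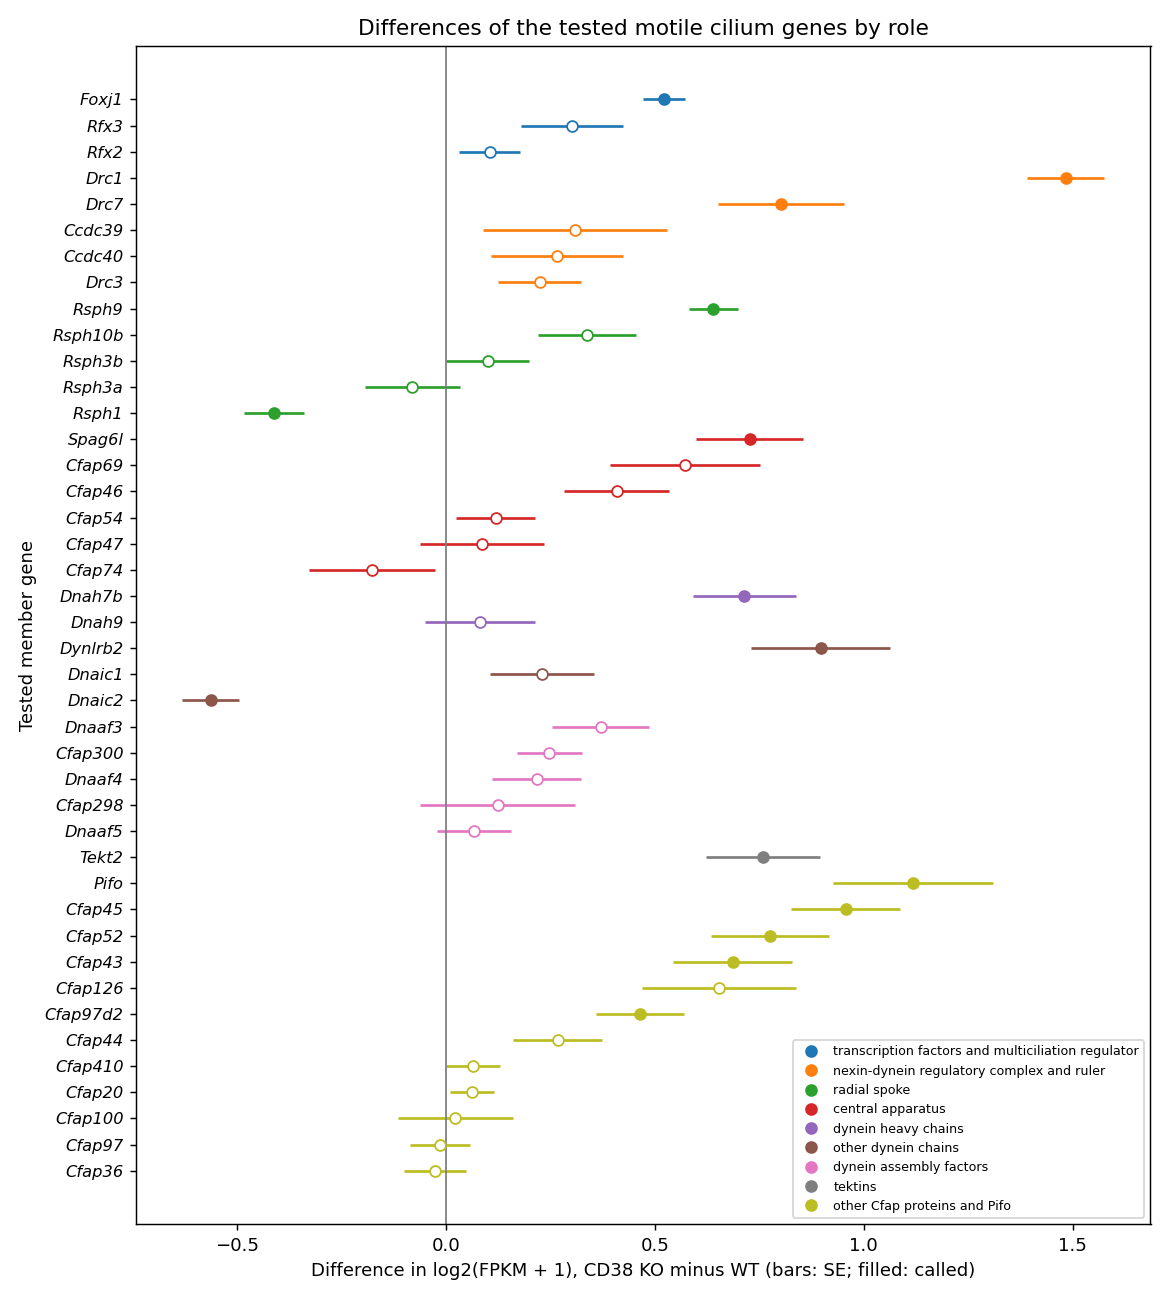
Difference in log2(FPKM + 1), CD38 KO minus WT, for the 42 tested members, grouped by role and coloured by it; bars are the SE of the limma fit and filled points are called members. Drc1 lies farthest to the right at 1.48, Dnaic2 at -0.56 and Rsph1 at -0.41 lie to the left, and the assembly factors hold no filled point.

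Tektins are filament proteins inside the paired microtubules. Tekt2 was at 0.972, 1.27, 2.38 and 2.79 FPKM, 2.31-fold higher (log2 difference 0.76, SE 0.14, limma adjusted p = 0.0209), and its call ended when any 1 library was left out. Tekt1, just under the filter, was at 0.666, 0.692, 1.51 and 1.01 FPKM, 1.86-fold higher. Tekt4 and Tekt5 stayed at or below 0.216 FPKM. So 1 tektin was tested and rose, and the 4 others were too low to test.

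The remaining Cfap genes and Pifo include many proteins that line the inside of the microtubules. Pifo (ENSMUSG00000010136, chr3:105996957-106014646), a protein of the ciliary base, had the largest fold among the called members, 5.26-fold, at 0.153, 0.582, 1.84 and 2.02 FPKM (log2 difference 1.12, SE 0.19, limma adjusted p = 0.0181). Cfap45, a protein inside the microtubules, was at 1.21, 1.63, 3.87 and 3.50 FPKM, 2.59-fold higher (0.96, SE 0.13, adjusted p = 0.00838). Both calls held without either WT library and ended without either CD38 KO library (largest adjusted p = 0.116 for Pifo and 0.0878 for Cfap45).

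Cfap52, also inside the microtubules, was at 0.540, 0.732, 1.69 and 1.91 FPKM, 2.83-fold higher (limma adjusted p = 0.0220). Cfap43, a protein of dynein tethering, was at 0.557, 0.640, 1.72 and 1.43 FPKM, 2.63-fold higher (adjusted p = 0.0314). Cfap97d2 was at 1.71, 1.76, 2.85 and 2.70 FPKM, 1.60-fold higher (adjusted p = 0.0416). The genotypes did not overlap in any of these 3 genes, as in 59.9% of all tested genes, and each call ended when any 1 library was left out. Cfap43 shares exon bases on its own strand with Itprip, which stood at 1.96, 2.20, 2.98 and 2.59 FPKM, so part of its reads may be assigned to either gene.

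The members of this group with the highest levels were not called. Cfap36 was at 43.2, 38.1, 38.6 and 41.1 FPKM (log2 difference -0.02, limma adjusted p = 0.859), and Cfap20 at 24.3, 24.4, 24.9 and 26.1 FPKM (0.06, adjusted p = 0.472). Cfap126 was at 4.69, 6.16, 10.8 and 7.53 FPKM, above WT in both CD38 KO libraries, and missed the threshold (0.65, adjusted p = 0.0734). Cfap70, at 0.740, 0.464, 1.67 and 1.12 FPKM, lay just under the filter and was 2.32-fold higher. Among all 39 members above 0 and too low to test, 14 (35.9%) had both CD38 KO libraries above both WT libraries and 2 had them below, against 15.1% and 16.4% of all genes at such levels.

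**Figure D3:**
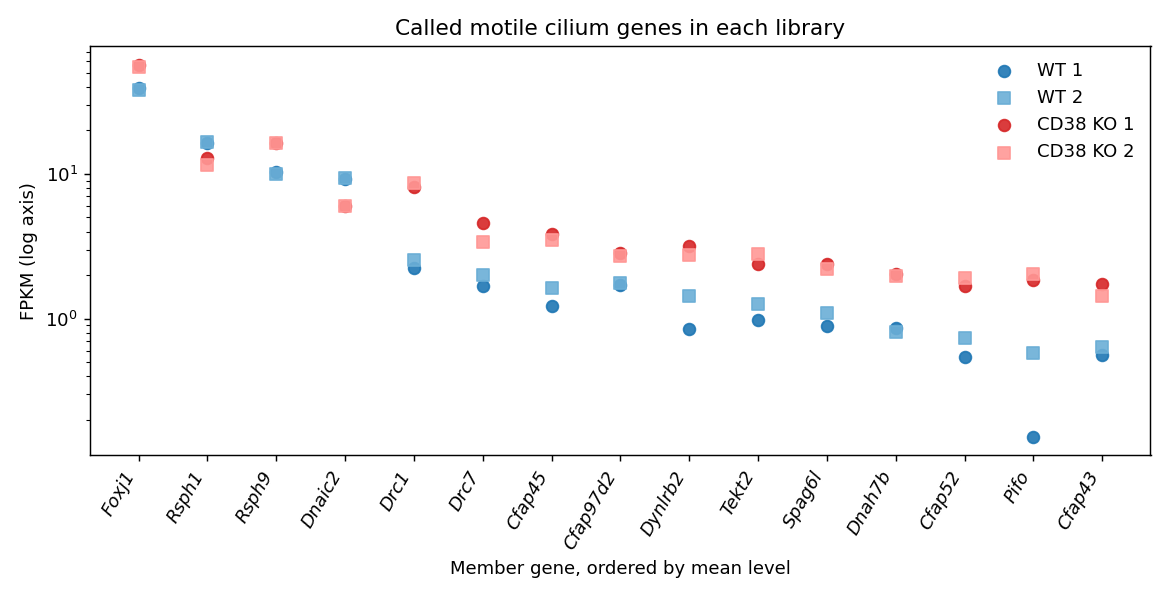
FPKM (log axis) of the 15 called members in each of the 4 libraries, ordered by mean level. In 13 genes both CD38 KO libraries (red) lie above both WT libraries (blue), and in Rsph1 and Dnaic2 they lie below; WT 1 is the lowest point of Pifo, at 0.153 FPKM.

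Genes of the same biology that the naming rule does not reach were read from lists in the same fit. Of 65 other axoneme and motile cilium genes, 46 were tested, 15 rose (32.6%, against 8.00% of all tested genes) and none fell (against 6.35%), with a median log2 difference of 0.39. Leaving out 1 library left 2 to 6 called (2 without CD38 KO 1, or 4.35%, against 2.34% of all tested genes, and 5 without WT 1, or 10.9%, against 3.51%). 1700007K13Rik was at 25.7, 24.7, 42.5 and 42.8 FPKM (log2 difference 0.74, limma adjusted p = 0.000634). Enkur, an adaptor protein of cilia and sperm tails, was at 3.75, 3.86, 9.26 and 7.66 FPKM, 2.22-fold higher (adjusted p = 0.00381). Armc3, at 0.889, 0.782, 2.61 and 2.39 FPKM, was called too (limma adjusted p = 0.00769), but its WT mean lay below 1 FPKM and it passed the filter through its CD38 KO level.

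Outside the members, a list of regulators of multiciliation and of ciliary genes more widely held no called gene, and only part of it was tested. The list leaves out Foxj1, Rfx2, Rfx3 and Mcidas, which are members described above, and of these Foxj1 rose. Of 20 such genes, 11 were tested and limma called none, against 8.00% higher and 6.35% lower of all tested genes. Among the 11, 3 had an unadjusted p below 0.05, and the median log2 difference was -0.04. Ccno, Myb, Trp73, Deup1 and Ccdc78 were among those too low to test. The difference between this list and the members was not tested. Gmnc, the geminin relative that acts at the top of the programme, was at 2.01, 2.40, 2.28 and 2.10 FPKM, and Cdc20b and Foxn4 were listed at 0. Rfx4, an RFX factor of glia and neural progenitors, was at 9.08, 8.46, 10.5 and 10.3 FPKM (0.23, limma adjusted p = 0.0863). Jazf1 was at 6.55, 6.85, 4.89 and 5.66 FPKM (-0.30, adjusted p = 0.0906).

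Genes shared by motile and primary cilia were read in the same way. All 29 genes of intraflagellar transport, the traffic that builds every cilium, were tested, and 4 rose: Ift22, Ift27, Ift57 and the kinesin gene Kif17. Ift27 was at 36.4, 37.4, 52.0 and 48.2 FPKM (log2 difference 0.43, limma adjusted p = 0.00679), and Kif17 at 0.801, 0.745, 2.31 and 2.12 FPKM (0.86, adjusted p = 0.0103). Kif17 had a WT mean below 1 FPKM and passed the filter through its CD38 KO level. All 34 genes of the primary cilium, its transition zone and the BBSome were tested, and Bbs4, Arl3, B9d1 and Tmem107 rose, with Tmem107 at 8.61, 8.09, 12.8 and 11.7 FPKM (0.50, adjusted p = 0.0107). The called shares were 13.8% and 11.8%, against 8.00% of all tested genes, and no gene of either list fell. Leaving out 1 library left 0 to 2 calls in the first list and 0 in the second, where 2.34% to 3.51% of all tested genes were called, and the difference between these lists and the members was not tested.

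The defining markers of ependymal and choroid plexus cells were mostly low. Of 11 ependymal markers, 6 were tested. Foxj1, itself a member, and Enkur, named above, rose (33.3%, against 8.00% of all tested genes), and none fell (against 6.35%). The summed level of the 11 was 143, 136, 158 and 157 FPKM. Foxj1 made up 39.4, 37.7, 57.0 and 54.7 FPKM of it, and without Foxj1 the genotypes overlapped. Ccdc153, an ependymal axoneme protein, was at 0.183, 0.228, 0.563 and 0.650 FPKM, and Tmem212 and Sntn were listed at 0 in every library. Cd24a, the largest part of the sum and not limited to ependyma, was at 57.9, 56.8, 58.5 and 56.9 FPKM (log2 difference 0.01, limma adjusted p = 0.919). None of the 8 choroid plexus markers reached the filter; Ttr was listed at 0, and their sums were 3.22, 3.80, 2.89 and 1.90 FPKM, with neither CD38 KO library above either WT library. Rarres2, a secreted protein of ependyma and other tissues, was abundant at 36.2, 33.4, 28.5 and 31.5 FPKM, with both CD38 KO libraries below both WT libraries (log2 difference -0.21, limma adjusted p = 0.112). Fam183b, a cilium protein, was at 0.889, 1.27, 2.11 and 1.66 FPKM, above WT in both (0.48, adjusted p = 0.106). Of the 11 ependymal markers, 5 had both CD38 KO libraries above both WT libraries, Foxj1 and Enkur among them. In 1 (Rarres2) they lay below, and 2 were at 0. Among the 6 tested, 3 lay above and 1 below, against 30.4% and 29.5% of all tested genes. For genes above 0 with a mean under 1 FPKM the shares were 15.1% and 16.4%.

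**Figure D4:**
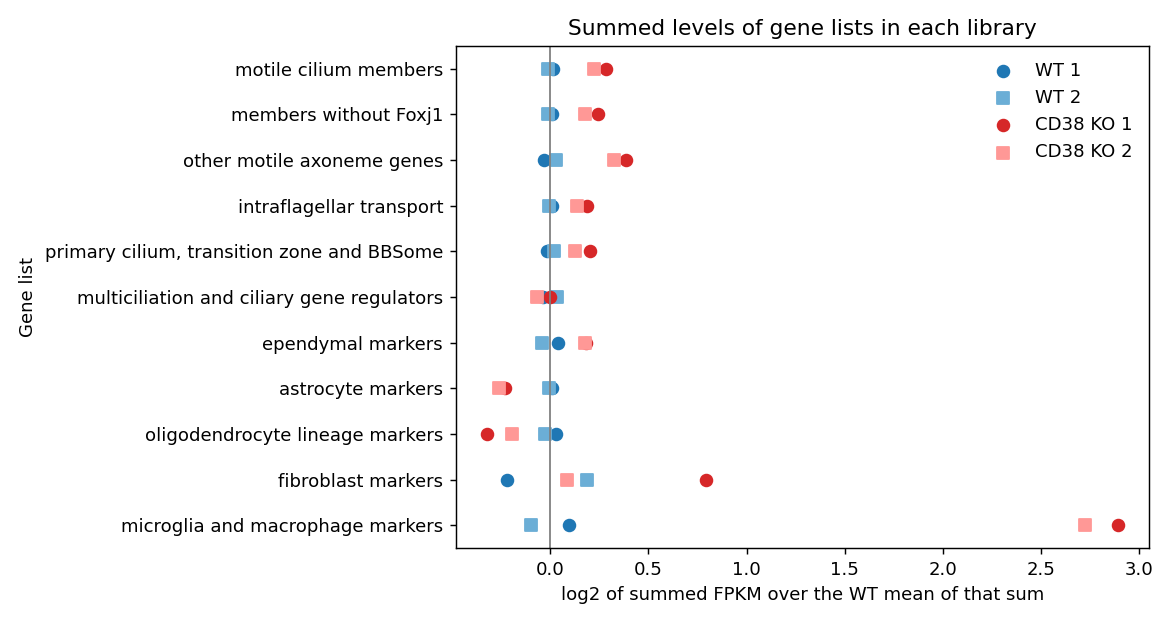
Summed FPKM of each gene list in each library, as the log2 ratio to the mean of the WT libraries. The members (0.29 and 0.22) and the other motile axoneme genes (0.39 and 0.33) lie to the right in both CD38 KO libraries. So do the lists of intraflagellar transport (0.19 and 0.14), primary cilium (0.20 and 0.13) and ependymal markers (0.18 and 0.18, with Foxj1 included). Fibroblast markers (0.79 and 0.08) overlap between genotypes, with WT 2 at 0.19. The regulators, a list that leaves out Foxj1 and the other members, stay near 0. The astrocyte and oligodendrocyte lineage markers lie to the left, and the microglia and macrophage markers lie near 2.7 to 2.9.

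Other cell types were checked in the same way. Of 9 oligodendrocyte lineage markers 6 were tested, 0 rose and 2 fell. Of 9 neuron markers 4 were tested, 1 rose and 1 fell. Over all tested genes 8.00% were called higher and 6.35% lower. Of 7 fibroblast markers 6 were tested and limma called none, with 1 at an unadjusted p below 0.05, and their summed level was 36.1, 47.9, 72.7 and 44.6 FPKM, highest in CD38 KO 1. None of the 5 endothelial markers was tested. The part of these cells in the members' differences was not tested.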

How the data were processed

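Values were measured by sequencing of polyA RNA in 4 libraries. The deposited values are FPKM per gene, per the file headers; the authors used bcl2fastq 2.17, STAR 2.7.0f, Cufflinks 2.2.1 and GRCm38, per the submitters' processing notes. The sources used here do not give the annotation release, the use of strand or any scaling of the libraries. GENCODE M21 matched 55226 of 55467 gene IDs, all 84 members included.

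Depth was estimated from the steps of low FPKM in 17493 genes with 1 transcript; 91.8% to 92.4% of values below 10 fragments fell within 0.1 of a whole number. The 13064 genes whose mean reached 1 FPKM were tested on log2(FPKM + 1) by limma 3.58.1 in R 4.3.3. The model held genotype alone, moderation followed a trend, and p-values were adjusted by Benjamini-Hochberg over these genes, with 0.05 as the threshold. These differences understate the change of low genes; folds are ratios of mean FPKM. On simulated data for this comparison with 13064 genes, the fit recovered 72.2% of log2 changes of 0.5, 97% of 1 and 98.8% of 2. The simulated noise was normal, and each gene's spread within genotype was drawn toward the median spread. Fewer genes were changed than were called in the data, so these shares may not hold for the real comparison. Named are Foxj1, Rfx2, Rfx3 and Mcidas, called members, up to 4 members of smallest p and the 2 of highest level in each role, members called in an alternative or listed at 0, up to 4 genes of smallest p in each list, and the 5 nearest profiles; members and markers named beyond these were picked with their values in view. The members and lists were chosen with earlier results of these data known. Alternatives were other added values, filters, scalings and moderation, a replicate block and each library left out. Python 3.11.15 with pandas 2.3.3 was used for summaries.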

Additional observations from a re-analysis of the deposited data

How the results depend on the processing

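Foxj1, Drc1 and Rsph9 kept their direction and their call in all 16 alternatives. The number of members called higher, 13 with all libraries, was 4 with no filter, 3 with a filter at 5 FPKM and 3 to 7 with 1 library left out; the number called lower, 2, was 1 with no filter and 0 with any 1 library left out. These fits take the spread of a genotype with 1 library from the genotype with 2. The genes called higher in CD38 KO over the whole table, 1045, came to 430 with no filter and 306 to 458 with 1 library left out, and those called lower, 830, to 312 and 225 to 284. With replicate number as a block, 610 genes and 6 members were called higher and 427 genes and 1 member lower. Both genotypes share the replicate numbers, and the differences of replicates had a Pearson r of -0.161 between genotypes, across genes. With 1 such difference per genotype, this value cannot decide whether the numbers pair the samples. Crossed numbers, an alternative chosen after seeing the data, gave 1102 and 859 genes and 14 and 2 members. The median log2 difference of tested members, 0.27, was 0.35 with 0.1 added before the log, alone or with a filter at 0.1 FPKM, 0.10 with no filter, 0.15 with a filter at 0.1 FPKM and 0.068 with a filter at 5 FPKM, where the set of members tested differs. No called member changed sign in any alternative. Of the members below 1 FPKM that have 1 annotated transcript, Rsph4a reached 119 fragments in a library and no other reached 100.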
